A study of Rattus norvegicus with 9 samples.

Results

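The 10 genes described here are the mitochondrially encoded subunits of respiratory complexes I and IV: Mt-nd1, Mt-nd2, Mt-nd3, Mt-nd4, Mt-nd4l, Mt-nd5 and Mt-nd6 of complex I, and Mt-co1, Mt-co2 and Mt-co3 of complex IV. They were found by gene name in a count table of 30562 genes from rat hippocampus, the forebrain region known for its part in memory and mood. All 10 had a row. The table held 9 mRNA sequencing libraries, 3 in each of 3 groups of male Sprague-Dawley rats that arrived at 6 to 8 weeks of age. ChryM rats received chrysophanol, an anthraquinone found in rhubarb, by gavage for 14 days, at a dose not given in the sources used here. Model rats received a high-fat diet for 4 weeks, 1 injection of streptozotocin (50 mg/kg, which destroys insulin-producing cells) and then 5 weeks of chronic unpredictable mild stress, and were kept as diabetic at a fasting glucose of at least 16.7 mmol/L. Ctrl rats were normal controls. The series title places chrysophanol treatment in rats with diabetes and depression, but the labels of the ChryM libraries do not spell out that these rats went through the Model protocol. The labels do not tie each library to a separate rat, so p-values measure the spread between libraries, which may be technical.

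Mitochondrial DNA is a small circle copied into RNA from both strands. The heavy strand yields a long transcript that is cut, mostly at tRNAs, into nearly all the mitochondrial mRNAs, while Mt-nd6 is the one mRNA encoded on the light strand. Complex I takes electrons from NADH and complex IV hands them to oxygen, and both pump protons across the inner membrane, which drives the ATP synthase that supplies neurons. Mt-nd1 sits where the membrane arm of complex I joins the arm that binds NADH. Mt-nd2, Mt-nd4 and Mt-nd5 are the antiporter-like proton pumps of the membrane arm, and Mt-nd3, Mt-nd4l and Mt-nd6 are small membrane subunits between them and Mt-nd1. Mt-co1 and Mt-co2 carry the metal centres of complex IV, and Mt-co3 flanks them. Mt-nd4l and Mt-nd4 lie on 1 shared mRNA. In human cells the ND6 mRNA is known to lack the poly(A) tail of the other mitochondrial mRNAs, and these libraries were made from RNA captured by that tail.

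Libraries held between 631119 and 866048 counts, and 7073 genes passed the filter on low counts, all 10 members among them. Levels are CPM, the counts scaled to a common library size with TMM factors, which correct for a few very abundant genes. Exceptions are the deposited FPKM, which divides by gene length, where named, and the summed marker levels in this paragraph. Those sums are CPM scaled by each library's total counts, without TMM factors. The marker calls given beside them used TMM factors, so sums and calls are on different scales. A gene was called at an adjusted p under 0.05 in the quasi-likelihood test of edgeR, Benjamini-Hochberg adjusted over all 7073 genes. Markers of other cell types differed between the groups. Over all genes, 7.04% were called higher and 5.39% lower in Model against Ctrl. These shares were 3.86% and 4.41% in ChryM against Model, and 9.83% and 8.96% in ChryM against Ctrl. Summed choroid plexus markers reached 72.7 to 85.7 CPM in ChryM and 33.3 to 44.0 CPM in Model libraries, against 1737 to 1800 CPM in Ctrl libraries, and 3 of the 3 tested were called lower in Model and in ChryM against Ctrl. Summed oligodendrocyte and myelin markers reached 15049 to 16476 CPM in ChryM, 8524 to 9438 CPM in Model and 15569 to 16660 CPM in Ctrl libraries; 10 of 10 were called lower in Model against Ctrl, 6 were called higher in ChryM against Model, and 6 were called lower and 1 higher in ChryM against Ctrl (median log2 difference -0.44). Neuron markers summed to 2683 to 2779 CPM in ChryM, 3209 to 3283 CPM in Model and 3068 to 3505 CPM in Ctrl libraries, with 5 of 8 called lower in ChryM against Model, 2 lower and 1 higher in Model against Ctrl, and 3 lower and 1 higher in ChryM against Ctrl. Blood markers summed to 99.0 to 107 CPM in ChryM, 68.1 to 84.0 CPM in Model and 340 to 365 CPM in Ctrl libraries, with 2 of the 2 tested called lower in Model and in ChryM against Ctrl. Of 8 astrocyte markers, 2 were called lower in Model against Ctrl, 1 in ChryM against Model and 4 in ChryM against Ctrl, with 0 called higher. Of 5 microglia markers tested, 0 were called in Model against Ctrl, and 1 was called lower in ChryM against Model and 1 against Ctrl. Of 2 endothelial markers tested, 1 was called lower in ChryM against Ctrl and 0 in the other comparisons. No listed marker present in the table was at 0 in all libraries. The part of these differences in the results below was not tested, and in whole tissue fewer cells of a type and less RNA per cell cannot be told apart.

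The strand on which reads were counted bears on every value below. The libraries were made strand-specific, and the strand setting used in counting is not given in the sources used here. In the deposited table, several genes known to be abundant in brain stood below genes that are not: over the 9 libraries Camk2a, the kinase of hippocampal synapses, had 1010 counts, Eef1a1 had 4315 and Actb had 4811, while Fosl1, an immediate early transcription factor, had 15417. Among neighbours known to lie on opposite strands, Ccdc152 had 15026 counts and Selenop, which overlaps it, 506, and Nr1d1 had 24118 counts and Thra, which overlaps it, 3747. Cox7a1, a nuclear subunit of complex IV, had 17038 counts and Capns1, which overlaps it, 613. These genes were chosen after their values were seen. Of the 100 nuclear genes with the most counts, 53.0% overlap another gene in the RefSeq annotation of assembly GRCr8, which gives no strand here, against 46.4% of the other 6408 tested. With the opposite setting, the value of a gene would be that of RNA from the other strand of its locus: the light-strand transcript for the 9 heavy-strand members, the heavy-strand transcript for Mt-nd6, and often a neighbour for a nuclear gene. From these tables a gene's own mRNA and RNA of the opposite strand cannot be told apart, so each level and difference below is that of the counts assigned to the named gene, cell type markers included.

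The 10 mRNAs together took 6.53% to 7.50% of all counts in ChryM, 6.70% to 7.56% in Model and 5.93% to 7.46% in Ctrl libraries. The 9 heavy-strand members were the steadier share. They took 4.78% ± 0.089 of counts in ChryM, 4.57% ± 0.24 in Model and 4.68% ± 0.096 in Ctrl libraries (SD, n = 3 each). The 6 heavy-strand complex I members took 2.72% ± 0.15 in ChryM, 2.74% ± 0.22 in Model and 2.71% ± 0.042 in Ctrl libraries. The 3 complex IV members took 2.06% ± 0.065 in ChryM, 1.82% ± 0.058 in Model and 1.96% ± 0.099 in Ctrl libraries. Mt-nd6 alone took 2.23% ± 0.40 in ChryM, 2.43% ± 0.51 in Model and 1.88% ± 0.75 in Ctrl libraries, between 23.0% and 38.9% of the members' counts in a single library. The SD of this 1 gene was larger than that of the other 9 summed in each group.

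**Figure D1:**
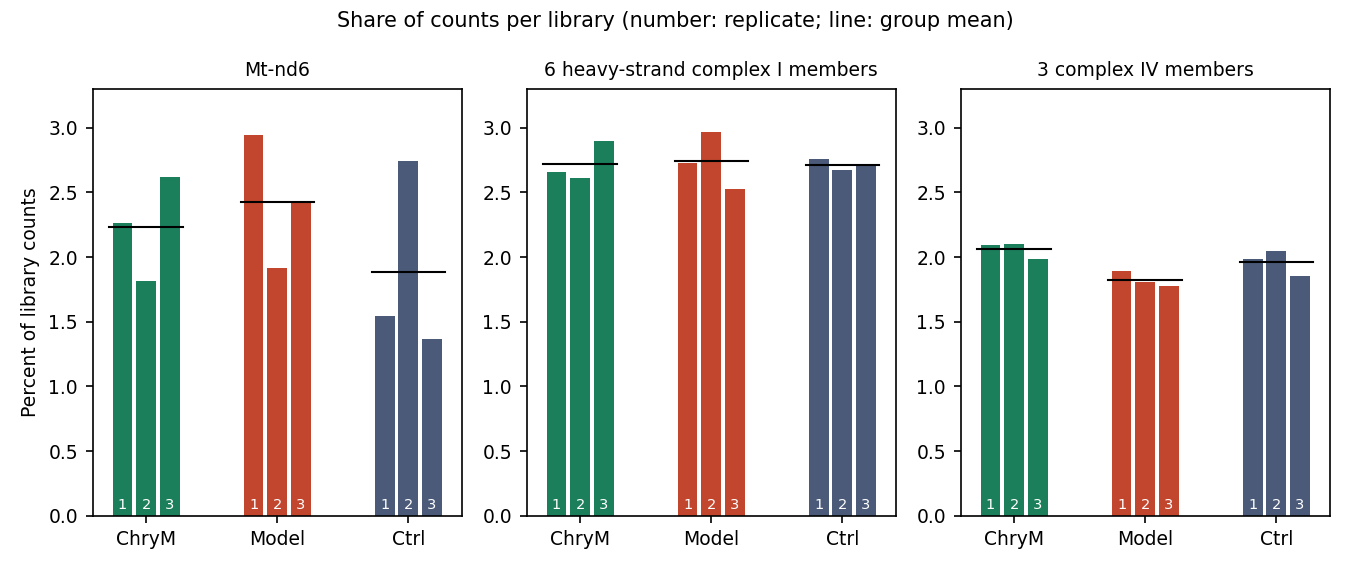
Percent of each library's counts taken by Mt-nd6 (left), the 6 heavy-strand complex I members (middle) and the 3 complex IV members (right). Each bar is 1 library with its replicate number, and lines are group means of 3; Mt-nd6 spans 1.36% to 2.94% over the 9 libraries, while the other sums stay closer to their means.

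Per length, Mt-nd6 stood first of the 10 in every one of the 9 libraries. Its deposited FPKM ran from 34947 to 50517 in ChryM, 36962 to 56683 in Model and 26283 to 52866 in Ctrl libraries, and by counts it ranked between 2 and 5 among all genes of the table. Its FPKM was 3.64 to 7.89 times the highest heavy-strand member of the same library. Below it came Mt-co1, at 7375 ± 390 FPKM over the 9 libraries, and Mt-nd4, at 6929 ± 458 FPKM, which changed places between libraries and did not differ beyond their spread. Mt-co3 (5756 ± 523), Mt-co2 (5233 ± 548) and Mt-nd5 (4815 ± 393) followed, with overlapping FPKM ranges. Mt-nd2 (4140 ± 205), Mt-nd1 (3524 ± 181), Mt-nd3 (2104 ± 200) and Mt-nd4l (1687 ± 198) held the last 4 places in that order in all 9 libraries. The highest heavy-strand member was 3.78 to 5.04 times the lowest. Mt-nd4 and Mt-nd4l, although encoded on 1 mRNA, differed per length by 3.78 to 4.53 times. Mt-nd4l is the shortest of the 10 at 297 bases in the deposited length column, its reading frame overlaps that of Mt-nd4, and how reads in an overlap were counted is not given in the sources used here.

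**Figure D2:**
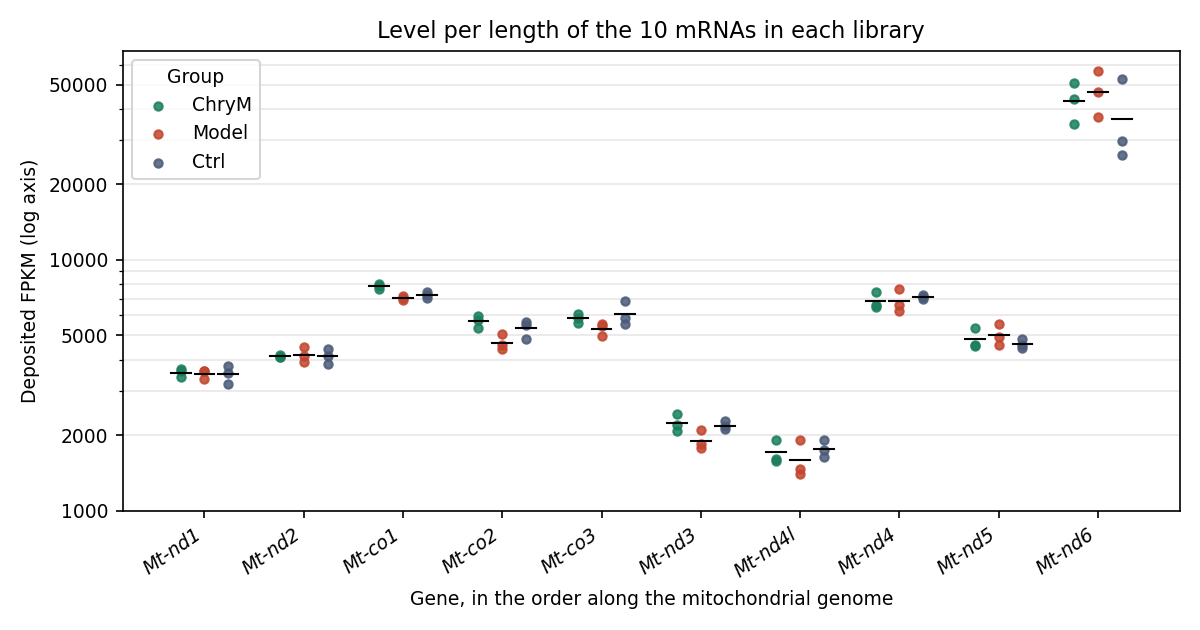
Deposited FPKM (log axis) of the 10 mRNAs in genome order, with 1 point per library and a line at each group mean (n = 3). Mt-nd6 lies above all heavy-strand members in every library, and the groups lie close together for the other 9.

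Mt-nd6 (ENSRNOG00000029042) varied more between libraries of 1 group than any other gene with a mean of at least 1000 counts, called well measured here. It reached 22580, 17741 and 26975 CPM in ChryM libraries, 30667, 20029 and 24948 CPM in Model libraries, and 14634, 25875 and 13576 CPM in Ctrl libraries. The groups overlapped throughout, and Ctrl 2 stood well above Ctrl 1 and Ctrl 3, at 1.91 times the lowest of the 3. The within-group SD of Mt-nd6 on the log2 CPM scale was 0.385, the widest of those 94 genes, whose median was 0.0807 and whose second widest was 0.164. Its mean was 16562 counts in a library. Mt-nd6 was not called in any comparison. Against Ctrl, the Model fold change was 0.48 ± 0.31 on the log2 scale (SE; 95% interval -0.27 to 1.24; edgeR adjusted p = 0.435). In ChryM against Model it was -0.17 ± 0.31 (-0.92 to 0.58; edgeR adjusted p = 0.845), and in ChryM against Ctrl 0.31 ± 0.31 (-0.44 to 1.07; edgeR adjusted p = 0.567). With the non-robust estimate of the spread, Mt-nd6 was called in Model against Ctrl (edgeR adjusted p = 0.000381) and in ChryM against Ctrl (edgeR adjusted p = 0.0232).

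The light-strand mRNA was then set directly against the other 9, in a fit that used their summed counts as the library size. Mt-nd6 had 0.477, 0.385 and 0.537 counts for each heavy-strand count in ChryM libraries, 0.637, 0.402 and 0.562 in Model libraries, and 0.326, 0.582 and 0.299 in Ctrl libraries. Ctrl 1 and Ctrl 3 were the lowest of the 9 libraries and Ctrl 2 was among the highest, so that the groups overlapped. Relative to the heavy-strand members the change was 0.41 on the log2 scale in Model against Ctrl (95% interval -0.34 to 1.16; edgeR adjusted p = 0.525), in a fit that called 10.8% of genes. It was -0.19 in ChryM against Model (-0.94 to 0.55; edgeR adjusted p = 0.825; 7.05% of genes called) and 0.21 in ChryM against Ctrl (-0.54 to 0.96; edgeR adjusted p = 0.718; 17.5% of genes called). Without Ctrl 2 the Model against Ctrl ratio difference was 0.77 on the log2 scale (edgeR adjusted p = 0.146). For Mt-nd6 the opposite strand carries the transcript of the other 9, and reads of the opposite strand cannot be told apart in these counts.

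**Figure D3:**
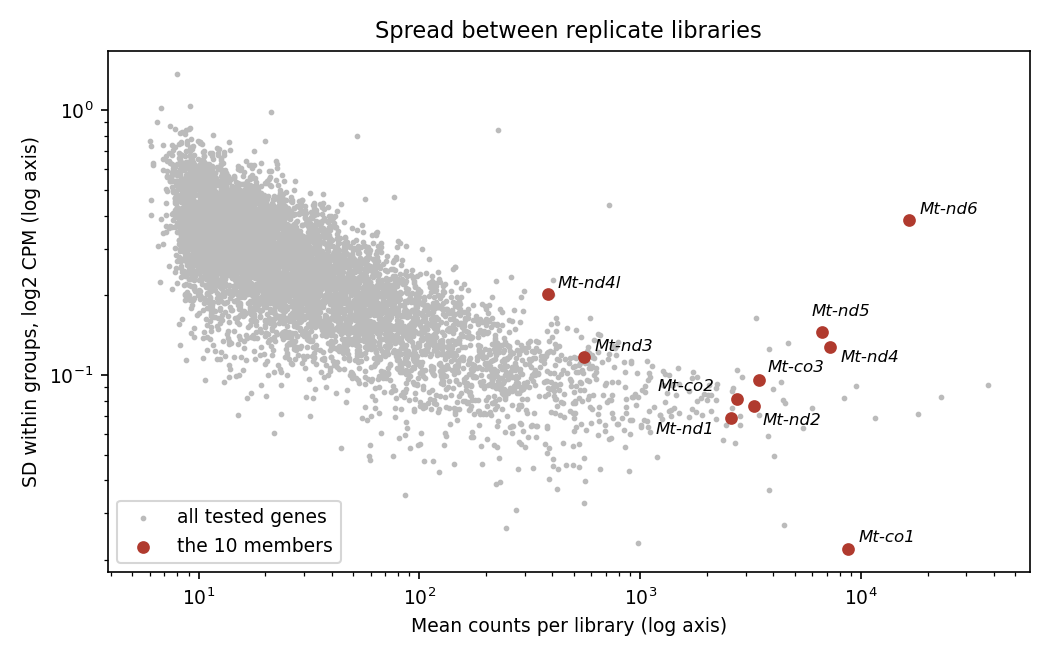
Within-group SD of log2 CPM against mean counts per library for the 7073 tested genes (grey) and the 10 members (red), both axes logarithmic. Mt-nd6 is the most variable and Mt-co1 the least variable of the 94 genes with a mean of at least 1000 counts.

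In Model against Ctrl, 1 of the 10 members was called, against 12.4% of all tested genes. The median log2 fold change of the 10 was 0.07, beside -0.02 over all genes, and the heavy-strand members lay between -0.09 and 0.23. In ChryM against Model, 1 of 10 was called, against 8.27% of genes, with a median of 0.01 beside 0.00 and a heavy-strand range of -0.11 to 0.23. In ChryM against Ctrl, none of the 10 was called with edgeR (2 at an unadjusted p under 0.05, Mt-co1 and Mt-co2), against 18.8% of genes, with a median of 0.08 beside -0.01 over all genes and a heavy-strand range of 0.00 to 0.17; DESeq2 called the same 2 there. The share of members called was near the share over all genes or under it.

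**Figure D4:**
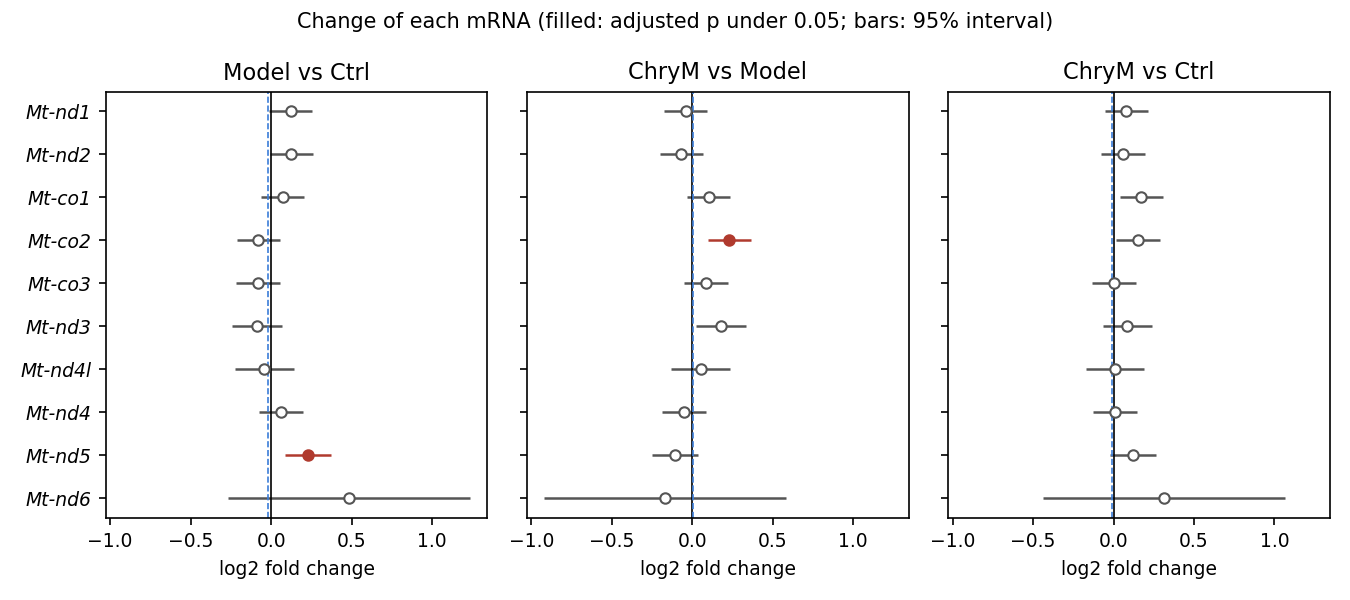
Log2 fold change of each member, in genome order from top to bottom, in the 3 comparisons, with 95% intervals from the edgeR fit over 9 libraries. Filled points (Mt-nd5 in Model vs Ctrl, Mt-co2 in ChryM vs Model) had an adjusted p under 0.05, and the dashed line is the median of all tested genes.

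Among the proton pumps of complex I, Mt-nd5 (ENSRNOG00000029971) rose in Model. It had 9370, 10589 and 8625 CPM in Model libraries, against 7932, 7676 and 8795 CPM in Ctrl libraries. Model 2 was the highest of these 6 and the lowest Model library lay under the highest Ctrl library, so the groups overlapped slightly. The log2 fold change was 0.23 ± 0.07 (edgeR adjusted p = 0.0189). ChryM libraries had 8342, 8089 and 10102 CPM, a log2 difference of -0.11 from Model (edgeR adjusted p = 0.436) and of 0.12 from Ctrl (edgeR adjusted p = 0.255). The call was lost without Model 2 (0.15; edgeR adjusted p = 0.314) or without any 1 of the Ctrl libraries (0.19 to 0.29; 0.0782 to 0.172), with library totals in place of TMM (0.12; 0.169), relative to the 9 heavy-strand members (0.15; 0.159), and with DESeq2 (0.25; adjusted p = 0.176) or limma on log2(FPKM + 1) (0.11; adjusted p = 0.358). Mt-nd5 is itself 1 of those 9 heavy-strand members.

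Mt-nd2 and Mt-nd4, the other pumps of the membrane arm, and Mt-nd1 were not called in any comparison. Mt-nd2 averaged 4291 ± 112 CPM in ChryM, 4499 ± 342 in Model and 4121 ± 186 in Ctrl libraries, and Mt-nd1 averaged 3394 ± 77 CPM in ChryM, 3493 ± 179 in Model and 3210 ± 195 in Ctrl libraries. Their Model against Ctrl log2 differences were 0.13 (edgeR adjusted p = 0.255) and 0.12 (edgeR adjusted p = 0.278). Mt-nd4 averaged 9463 ± 941 CPM in ChryM, 9805 ± 1079 in Model and 9401 ± 441 in Ctrl libraries, and its sign in each comparison changed with the setting. For these 3 genes the 95% intervals of the log2 differences ran from -0.20 at the lowest to 0.26 at the highest.

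Library by library, the neighbours Mt-nd4l, Mt-nd4 and Mt-nd5 had their highest CPM in the same libraries: ChryM 3, Model 2 and Ctrl 3 of each group. Mt-nd4l and Mt-nd4 lie on 1 mRNA with overlapping reading frames, so the agreement of these genes is partly given in advance. Mt-nd3 and Mt-atp6 of ATP synthase were also highest in ChryM 3 and Model 2, but in Ctrl 2 and Ctrl 1 among Ctrl libraries. Mt-nd4l had 477, 460 and 587 CPM in ChryM, 453, 594 and 427 in Model and 459, 490 and 564 in Ctrl libraries. Mt-nd4 had 9088, 8768 and 10534 CPM in ChryM, 9522, 10998 and 8897 in Model and 9245, 9059 and 9898 in Ctrl libraries. Mt-nd5 and Mt-nd4 were both among the 5 most variable of the 94 well-measured genes within groups, with SDs of 0.145 and 0.127 on the log2 scale. Mt-nd6, which lies beside Mt-nd5 on the other strand, was highest in ChryM 3, Model 1 and Ctrl 2, so it shared the highest library with Mt-nd4l, Mt-nd4 and Mt-nd5 in ChryM alone. Summed, Mt-nd4, Mt-nd4l and Mt-nd5 gave 0.842 to 1.04 counts per complex IV count in ChryM, 0.980 to 1.18 in Model and 0.893 to 1.04 in Ctrl libraries. The ratio overlapped between groups.

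**Figure D5:**
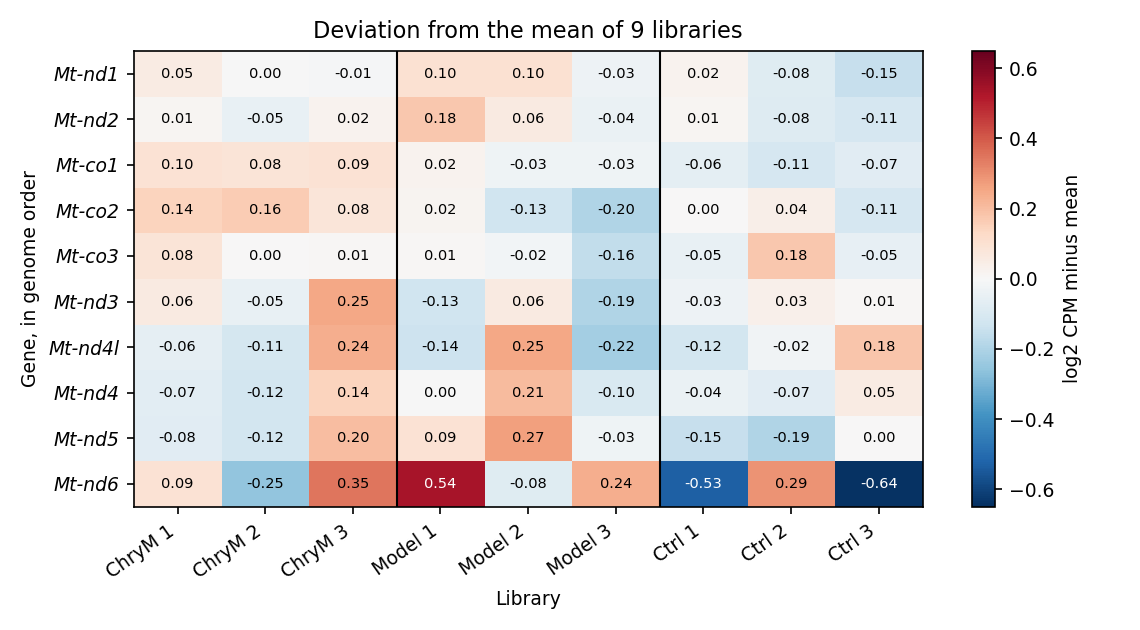
Log2 CPM of each member (rows, genome order) in each library (columns, grouped as ChryM, Model and Ctrl) minus that gene's mean over the 9 libraries. Mt-nd6 runs from -0.64 in Ctrl 3 to 0.54 in Model 1, and Mt-nd4l, Mt-nd4 and Mt-nd5 are high together in ChryM 3 and Model 2. Mt-nd3 is also above its mean in ChryM 3 (0.25) and Model 2 (0.06).

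The small complex I subunits Mt-nd3 and Mt-nd4l had the fewest counts of the 10. Mt-nd3 reached 759, 705 and 867 CPM in ChryM libraries, 666, 759 and 637 CPM in Model libraries and 714, 745 and 732 CPM in Ctrl libraries. ChryM 3 was the highest of the 9 and Model 3 the lowest, and the groups overlapped. Mt-nd3 had a log2 difference of 0.18 ± 0.08 in ChryM against Model (edgeR adjusted p = 0.171) and of -0.09 ± 0.08 in Model against Ctrl (edgeR adjusted p = 0.540), both called under library totals alone. Mt-nd4l differed by at most 0.05 on the log2 scale in any comparison, and its 95% intervals reached 0.24 at the widest.

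Among the complex IV members, Mt-co2 (ENSRNOG00000030371), the subunit that first receives electrons from cytochrome c, rose in ChryM relative to Model. It had 3932, 3993 and 3757 CPM in ChryM libraries, against 3602, 3254 and 3108 CPM in Model libraries. The groups did not overlap, as for 11.8% of tested genes in this direction. The log2 fold change was 0.23 ± 0.07 (edgeR adjusted p = 0.0177), and the call held relative to the 9 heavy-strand members (0.22; edgeR adjusted p = 0.0314). Mt-co2 is itself 1 of those 9 and the libraries are the same, so that fit is not independent support. Ctrl libraries had 3563, 3651 and 3302 CPM. Model differed from Ctrl by -0.08 (edgeR adjusted p = 0.546), and ChryM from Ctrl by 0.15 (edgeR adjusted p = 0.111; DESeq2 adjusted p = 0.0307), with no overlap, as for 15.8% of tested genes in this direction. The ChryM against Model call was lost without ChryM 1 (edgeR adjusted p = 0.0765), ChryM 2 (0.102), Model 2 (0.128) or Model 3 (0.199).

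Mt-co1 (ENSRNOG00000034234), the catalytic subunit of complex IV, was the most evenly measured of the members. It had 12163, 12061 and 12145 CPM in ChryM libraries, 11570, 11170 and 11178 CPM in Model libraries, and 10902, 10558 and 10808 CPM in Ctrl libraries. No pair of groups overlapped, with ChryM highest and Ctrl lowest. In the same direction, groups failed to overlap for 13.4% of tested genes in Model against Ctrl, 11.8% in ChryM against Model and 15.8% in ChryM against Ctrl. Its within-group SD of 0.0220 on the log2 scale was the narrowest of the 94 well-measured genes, while the quasi-likelihood fit gave it a standard error of 0.07. None of its differences was called. The log2 differences were 0.07 in Model against Ctrl (edgeR adjusted p = 0.587), 0.10 in ChryM against Model (edgeR adjusted p = 0.449) and 0.17 in ChryM against Ctrl (95% interval 0.04 to 0.31; edgeR adjusted p = 0.0611). ChryM against Ctrl was called with DESeq2 (adjusted p = 7.25e-05), limma on log2(FPKM + 1) (adjusted p = 0.0306), the replicate block (edgeR adjusted p = 0.0278) and without Ctrl 3 (edgeR adjusted p = 0.00686). ChryM against Model was called with library totals and with limma at either pseudocount, 3 of 20 alternatives (0.15; lowest adjusted p = 0.0110). In Model against Ctrl the sign turned to -0.04 with library totals.

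Mt-co3 was not called in any comparison by edgeR under TMM. It had 4761, 4511 and 4522 CPM in ChryM libraries, 4522, 4445 and 4032 CPM in Model libraries, and 4342, 5082 and 4331 CPM in Ctrl libraries. Ctrl 2, the highest, lay above every other library, and Model 3 was the lowest. With library totals, Mt-nd3 (-0.20), Mt-co2 (-0.19) and Mt-co3 (-0.20) were called lower in Model against Ctrl, where that scaling put the median of all genes at -0.13. Heavy-strand complex I counts per complex IV count were 1.32 ± 0.12 in ChryM, 1.50 ± 0.12 in Model and 1.39 ± 0.079 in Ctrl libraries (SD, n = 3 each), with overlap of each pair of groups.

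The remaining protein-coding mitochondrial genes, Mt-cyb of complex III and Mt-atp6 and Mt-atp8 of ATP synthase, were not called in any of the comparisons by edgeR under TMM with all libraries or by DESeq2 (Mt-atp8 was 1 of the 3 at an unadjusted p under 0.05 in Model and in ChryM against Ctrl). Mt-atp8 had a log2 difference of -0.26 in Model against Ctrl (edgeR adjusted p = 0.114), and relative to the 9 heavy-strand members it was called lower both in Model (-0.33; edgeR adjusted p = 0.0228) and in ChryM (-0.29; edgeR adjusted p = 0.0273) against Ctrl. With 1 library left out Mt-atp8 was called lower under 2 of 20 alternatives in Model and 1 of 20 in ChryM against Ctrl, and Mt-cyb was called lower in Model against Ctrl with library totals (edgeR adjusted p = 0.0491).

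Most subunits of both complexes are encoded in the nucleus. Of 33 nuclear complex I subunits tested, 2 were called higher and 1 lower in Model against Ctrl, beside 7.04% and 5.39% of all genes, with a median log2 difference of 0.21. In ChryM against Model 0 of the 33 were called by edgeR and 0 by DESeq2 (2 at an unadjusted p under 0.05), beside 3.86% of all genes called higher and 4.41% called lower, with a median of 0.05. In ChryM against Ctrl 6 were called higher and 1 lower, beside 9.83% and 8.96% of all genes, with a median of 0.21. Ndufs7, which holds the last iron-sulfur cluster before ubiquinone, fell to 367 ± 36 CPM in Model, against 499 ± 30 CPM in Ctrl libraries (log2 -0.45; edgeR adjusted p = 2.96e-05). Ndufb7, an accessory subunit of the membrane arm, averaged 136 ± 11 CPM in Model, against 96.6 ± 15.1 CPM in Ctrl libraries (0.49; edgeR adjusted p = 0.00603), and 144 ± 3.3 CPM in ChryM libraries. Ndufb8, of the same arm, was also called higher in Model (0.44). Ndufb7 (0.58), Ndufa13 (0.40), Ndufs5 (0.55) and Ndufa6 (0.48), all accessory subunits, were among the 6 called higher in ChryM against Ctrl, and Ndufs7 was the 1 called lower (-0.23). DESeq2 called 1 higher and 0 lower in that comparison. The calls of Ndufs7 in Model against Ctrl and of Ndufb7 in ChryM against Ctrl passed under all 20 alternatives run.

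Of 12 nuclear complex IV subunits tested, 2 were called higher in Model against Ctrl, beside 7.04% of all genes, and 6 in ChryM against Ctrl, beside 9.83%; 0 were called lower, and 0 were called in ChryM against Model by edgeR or DESeq2 (1 at an unadjusted p under 0.05). Their median log2 differences were 0.19, 0.23 and 0.04 in that order of comparisons. Cox6a1 averaged 255 ± 3.6 CPM in ChryM, 248 ± 8.8 CPM in Model and 171 ± 15 CPM in Ctrl libraries, a log2 fold change of 0.58 in ChryM against Ctrl (edgeR adjusted p = 2.19e-06) and of 0.54 in Model against Ctrl (edgeR adjusted p = 4.16e-05). Cox5b was called higher in Model (0.35) and ChryM (0.50) against Ctrl. Cox6c (0.92) and Cox4i1 (0.26) were called higher in ChryM against Ctrl.

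In ChryM against Ctrl, 1 of 5 transcription and replication factors was called higher and 1 lower, and 2 of 9 processing and stability factors were called higher, beside 9.83% of all genes called higher and 8.96% called lower. None of 10 complex I assembly factors tested was called in any comparison by edgeR or DESeq2 (1 at an unadjusted p under 0.05, Ecsit in Model against Ctrl). Over all genes, edgeR called 12.4% in Model against Ctrl, 8.27% in ChryM against Model and 18.8% in ChryM against Ctrl. Of 8 complex IV assembly factors, Coa6, which helps deliver copper to the Mt-co2 protein, was called higher in Model (0.45) and ChryM (0.67) against Ctrl, beside 7.04% and 9.83% of all genes. Slirp, the partner of Lrpprc that protects mitochondrial mRNAs, averaged 771 ± 69 CPM in ChryM, 732 ± 52 CPM in Model and 484 ± 42 CPM in Ctrl libraries. Its log2 fold change was 0.60 in Model against Ctrl (edgeR adjusted p = 4.63e-10) and 0.67 in ChryM against Ctrl (edgeR adjusted p = 1.09e-12). Slirp was the only call of Model against Ctrl among 9 processing and stability factors tested, beside 12.4% of all genes called. Fastk, needed for the Nd6 mRNA in mouse and human cells, was called higher in ChryM against Ctrl (0.78), at 39.6 ± 15.6 CPM in ChryM, against 23.3 ± 4.2 CPM in Ctrl libraries, and leaving out 1 library put it between 0.39 and 0.94 (edgeR adjusted p up to 0.411). Mterf2, of the mitochondrial termination factor family, fell to 1228 ± 56 CPM in ChryM, against 1791 ± 53 CPM in Model libraries (log2 -0.54; edgeR adjusted p = 1.62e-10), and against 1593 ± 115 CPM in Ctrl libraries (-0.38). Tfb1m, which methylates mitochondrial ribosomal RNA, was called higher in Model (0.43) and ChryM (0.78) against Ctrl. Of the nuclear regulators of mitochondrial biogenesis only Yy1 had enough counts to test, and it was called lower in ChryM against Ctrl (-0.52; edgeR adjusted p = 0.0498). Slirp overlaps Alkbh1 and Snw1, Coa6 overlaps Tarbp1, and Tfb1m overlaps Tiam2 in the same RefSeq annotation, so reads of these neighbours cannot be told apart. The same holds for Cox7a1, which overlaps Capns1, and Ndufb2, which overlaps Braf, both among the nuclear subunits called in ChryM against Ctrl. The calls of Ndufb8, Cox5b and Tfb1m in Model against Ctrl, and those of Ndufs5, Ndufa6, Cox4i1, Fastk and Yy1 in ChryM against Ctrl, were each lost under at least 5 of 20 alternatives.

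Among 4563 genes with a mean of at least 20 CPM, the pattern of Mt-nd6 over the 9 libraries was closest to those of Golm1, Adgrl1 and Mllt1. These genes averaged 33.8, 63.7 and 23.1 CPM, so counting noise is part of their patterns. They were picked as the closest of the 4563, and a relation to Mt-nd6 was not tested. Closeness was the root mean square difference in centred log2 CPM, which was 0.147 for Golm1, 0.159 for Adgrl1 and 0.177 for Mllt1, where a flat line gave 0.383 and 1009 of the 4563 genes lay nearer than it. Like Mt-nd6, Golm1 was lowest in Ctrl 1 and Ctrl 3, at -0.71 and -0.60 from its mean on the log2 scale, and stood at 0.27 in Ctrl 2. Golm1 overlaps Naa35 in the same annotation, and Adgrl1 and Mllt1 also overlap other annotated loci. For the summed 9 heavy-strand members the closest were Srsf9, Wdr26 (0.0550) and Ubtf (0.0611), beside 0.0648 for a flat line, with 3 genes nearer than it.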

How the data were processed

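Poly(A) RNA of rat hippocampus was made into strand-specific libraries, per the labels' protocols. HISAT2 and DESeq2 are named in the submitters' processing notes; no source used here gives the genome build, the counting tool, its strand setting or the treatment of reads with several matches, so reads shared with nuclear copies of mitochondrial DNA cannot be told apart. The authors deposited a table of raw counts and a table of FPKM values with gene lengths. Per the file headers, each library has a column in both, and the FPKM equal the counts divided by the deposited gene length and the library's summed counts in 100% of values (relative tolerance 1e-09). The libraries held 631119 to 866048 counts, which gave a tested gene a median of 19 to 27 counts.

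Counts were tested with edgeR 4.0.16 (R 4.3.3; filterByExpr, TMM, robust quasi-likelihood fit, 1 coefficient per group, 6 residual degrees of freedom) over 7073 genes in all 9 libraries, two-sided, with Benjamini-Hochberg adjustment. A fit with the 9 heavy-strand members' summed counts as library size tested Mt-nd6 against them. The procedure was tested on simulated data in which every gene had the same spread, so that test does not cover a spread as wide as that of Mt-nd6. Alternatives were other scalings, filters, DESeq2 1.42.0, limma 3.58.1 on log2(FPKM + 1) and log2(FPKM + 0.1), a non-robust spread, a replicate block, only the compared groups, and leaving out each library.

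The members and the gene lists were chosen with earlier results of these data known. Of each nuclear list, at most 4 called genes per comparison were named, those with the smallest p. Ndufs7 was also named in ChryM against Ctrl as the 1 complex I subunit called lower there, and Cox7a1 and Ndufb2 were named for their overlaps. No sequences of the members were used here.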

Additional observations from a re-analysis of the deposited data

How the results depend on the processing

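Each member's log2 fold change was recomputed under 20 alternatives in each of 3 comparisons. Of these 600 values, 529 kept direction and side of the threshold, 12 lost a call, 15 gained one and 44 turned sign, none of the 44 with an adjusted p under 0.05 and none larger than 0.11 in size. Mt-cyb, Mt-atp6 and Mt-atp8, not among the 10, are listed with them below. With library totals, which moved the median of all genes in Model against Ctrl to -0.13, the signs that turned were Mt-nd4 (-0.0511) and Mt-co1 (-0.0402) in Model against Ctrl, Mt-nd1 (0.0133) and Mt-nd4 (0.00101) in ChryM against Model, and Mt-nd2 (-0.00183), Mt-nd4 (-0.0501), Mt-nd4l (-0.0495), Mt-co3 (-0.0562), Mt-cyb (-0.0518) and Mt-atp6 (-0.0231) in ChryM against Ctrl. Under limma on log2(FPKM + 1) they were Mt-nd4 (-0.0556) and Mt-co1 (-0.0399) in Model against Ctrl, Mt-nd1 (0.0127) and Mt-nd4 (0.00326) in ChryM against Model, and Mt-nd4 (-0.0524), Mt-nd4l (-0.0512), Mt-co3 (-0.0507), Mt-cyb (-0.0509) and Mt-atp6 (-0.0218) in ChryM against Ctrl, and with a pseudocount of 0.1 the same genes turned, at the same values to 3 decimals (Mt-cyb -0.0510). With only the compared groups fitted, Mt-nd4 (-0.00453), Mt-nd4l (-0.00478), Mt-co3 (-0.0111) and Mt-cyb (-0.00736) turned in ChryM against Ctrl. The cause was not tested.

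Leaving out each library gave ranges across 0 in Model against Ctrl for Mt-nd4 (-0.0283 to 0.129), Mt-nd4l (-0.194 to 0.0579), Mt-cyb (-0.0751 to 0.0147) and Mt-atp6 (-0.0996 to 0.0845); in ChryM against Model for Mt-nd4 (-0.137 to 0.0295), Mt-nd4l (-0.0623 to 0.195), Mt-cyb (-0.00223 to 0.0726), Mt-atp6 (-0.0423 to 0.128) and Mt-atp8 (-0.0936 to 0.159); and in ChryM against Ctrl for Mt-nd3 (-0.00464 to 0.16), Mt-nd4 (-0.0813 to 0.0676), Mt-nd4l (-0.11 to 0.0945), Mt-co3 (-0.0336 to 0.0858) and Mt-cyb (-0.0115 to 0.0401). It left 0 to 1 members called in each comparison, and 614 to 887 genes in Model against Ctrl, 390 to 621 in ChryM against Model and 971 to 1349 in ChryM against Ctrl. The ratio of Mt-nd6 to the heavy-strand members ranged from 0.23 to 0.77, from -0.36 to -0.05 and from 0.04 to 0.58 in the same order. Its group shares of counts ranged from 2.04% to 2.44% in ChryM, 2.17% to 2.68% in Model and 1.45% to 2.14% in Ctrl, those of the 9 heavy-strand members from 4.73% to 4.82%, 4.46% to 4.70% and 4.64% to 4.73%, and those of all 10 from 6.77% to 7.26%, 6.71% to 7.14% and 6.11% to 6.87%.

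DESeq2 called 413 genes (320 higher, 93 lower) in Model against Ctrl, 252 (102 and 150) in ChryM against Model and 598 (389 and 209) in ChryM against Ctrl, where edgeR called 879 (498 and 381), 585 (273 and 312) and 1329 (695 and 634). Limma with a pseudocount of 1 called 553 (207 and 346), 352 (212 and 140) and 793 (345 and 448), and with 0.1 it called 521 (202 and 319), 351 (208 and 143) and 772 (339 and 433). Library totals split the calls 290 higher and 641 lower, 369 and 254, and 533 and 799. Members called in Model against Ctrl were 3 with library totals, 0 with DESeq2, 0 with limma and 2 with the non-robust spread, which also called the Mt-nd6 ratio (0.41; adjusted p = 0.00132). In ChryM against Model 3 were called with library totals and 2 with limma, and in ChryM against Ctrl 2 with DESeq2 and 1 with limma, the non-robust spread or the replicate block.

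Of counts with a gene name, all 10 members took 9.02% in ChryM, 9.23% in Model and 8.54% in Ctrl, the 9 heavy-strand members 6.15%, 6.03% and 6.09%, and Mt-nd6 2.87% in ChryM, 3.20% in Model and 2.45% in Ctrl. Relative to non-mitochondrial counts, all 10 took 7.70% in ChryM, 7.66% in Model and 7.15% in Ctrl, and the 9 took 5.25%, 5.00% and 5.09%. Same-numbered libraries showed no shared deviation (correlations -0.0304 to 0.0421, against -0.0425 to 0.0629 for other numbers, and 2 of 9 libraries correlated best with their own number). At a median of 19 to 27 counts per tested gene, counting noise can hide a shared deviation, so this check cannot exclude pairs. The numbers are not taken as pairs because the labels do not pair the animals. The replicate block called 855, 586 and 1319 genes, and Mt-co1 alone of the members changed its call. Depth limits the low-count genes: Mt-nd3 and Mt-nd4l had the fewest counts of the members, and only 1 of 9 nuclear regulators of mitochondrial biogenesis had enough counts to test.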

Other observations

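Of the 37 rows that the table's name field places on the rat mitochondrial genome, 24 carry no gene symbol; 16 of these had 0 counts in all libraries and 6 had 1 to 100 counts in all. The other 2, chosen after their values were seen, were well measured, with larger log2 fold changes against Ctrl than any heavy-strand mRNA of complex I or IV. The row ENSRNOG00000043866 had 6056, 6410 and 6347 CPM in ChryM, 5656, 5441 and 5354 CPM in Model and 3977, 4268 and 3957 CPM in Ctrl libraries, with no overlap of groups. Its log2 fold change was 0.43 in Model against Ctrl (edgeR adjusted p = 1.80e-07), 0.19 in ChryM against Model (edgeR adjusted p = 0.0570) and 0.62 in ChryM against Ctrl (edgeR adjusted p = 2.05e-14). The row ENSRNOG00000030478 had 2588, 2817 and 2839 CPM in ChryM, 2369, 2270 and 2393 CPM in Model and 2032, 2109 and 1737 CPM in Ctrl libraries, again without overlap, with 0.26 in Model against Ctrl (edgeR adjusted p = 0.00534), 0.23 in ChryM against Model (edgeR adjusted p = 0.0194) and 0.49 in ChryM against Ctrl (edgeR adjusted p = 3.23e-09). In ChryM against Ctrl both calls held under all 20 alternatives run, while those of ENSRNOG00000030478 were lost under 3 of 20 in Model against Ctrl and 4 of 20 in ChryM against Model, and ENSRNOG00000043866 gained its call in ChryM against Model under 8 of 20. Groups failed to overlap in the same direction for 13.4% of tested genes in Model against Ctrl, 11.8% in ChryM against Model and 15.8% in ChryM against Ctrl. The deposited length was 1571 bases for ENSRNOG00000043866 and 958 for ENSRNOG00000030478, and 60 to 75 for the other rows without a symbol. No row carries the symbol Mt-rnr1 or Mt-rnr2, those of the mitochondrial ribosomal RNAs. The table gives these 2 rows no gene name, and none is given here.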
